A study of Rattus norvegicus with 12 samples.

Results

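The Slc22 genes described here encode organic cation, carnitine, organic anion, urate and prostaglandin transporters of the kidney. The members were chosen by name, with earlier results of these data known. They were Slc22a2, Slc22a4, Slc22a5, Slc22a6, Slc22a7, Slc22a8, Slc22a12, Slc22a22 and Slc22a25. Of these 9 genes, 8 had a row in each expression table, out of 22132 entries (control with adenine) and 32623 entries (sham with UUO). Slc22a4, which encodes the ergothioneine transporter OCTN1, was not analysed here for expression.

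RNA-seq of poly(A) RNA was performed on kidneys of 12 male SD (Sprague-Dawley) rats, wild type in their labels and 8 weeks old at purchase, with 3 different rats in each of 4 groups. For 3 weeks the adenine group received adenine by gavage, at a daily dose of 220 mg/kg, and the control group received saline. In the UUO (unilateral ureteral obstruction) group the left ureter was ligated, and kidneys were taken after 2 weeks, as they were from the sham-operated group. Both treatments are models of renal fibrosis, and each was compared with its own reference group to ask how transporter transcripts differed in the diseased kidney. A metabolite of adenine can form crystals in tubules, UUO blocks urine outflow, and the sources used here do not name which kidney of a UUO rat was sequenced.

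Transporters of the Slc22 family move small charged molecules across the membranes of epithelial cells, above all those of the proximal tubule. OCT2, OAT1 and OAT3, the products of Slc22a2, Slc22a6 and Slc22a8, lie in the basolateral membrane and take cations or anions, drugs and uremic solutes among them, from the blood into the cell. Other members work at the luminal side, where URAT1 (Slc22a12) reabsorbs urate and OCTN2 (Slc22a5) recovers carnitine together with sodium.

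Values are FPKM (fragment counts scaled for transcript length and for the number of mapped fragments), so levels of different genes in a kidney can be set side by side. A gene was said to fall or rise where limma, fitted to log2(FPKM + 0.1), gave a Benjamini-Hochberg adjusted p under 0.05 over all tested genes of the table. A DEG (differentially expressed gene) also changed by 2 or more on the log2 scale in either direction. In bulk tissue, fewer cells of a type and less RNA per cell cannot be told apart. With 3 rats against 3, a single gene tested by exact permutation cannot reach a p below 0.1, two-sided.

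In the adenine kidneys 7 of the 8 members fell, where 19.9% of all tested genes fell, and 6 were DEGs that fell, against 5.03% of all (10.7% of all were DEGs that rose, and no member). In the UUO kidneys 8 of 8 fell, against 14.4% of all, and 7 were DEGs that fell, against 4.21% (13.2% of all were DEGs that rose, and no member). Their median log2 fold change was -5.33 with adenine and -4.79 with UUO, beside medians over all tested genes of 0.30 and 0.62. All 3 adenine values lay below all 3 control values for 7 of 8 members (23% of all tested genes), and all 3 UUO values below all 3 sham values for 8 of 8 (15.7%). The exception was Slc22a8 in the adenine kidneys.

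**Figure D1:**
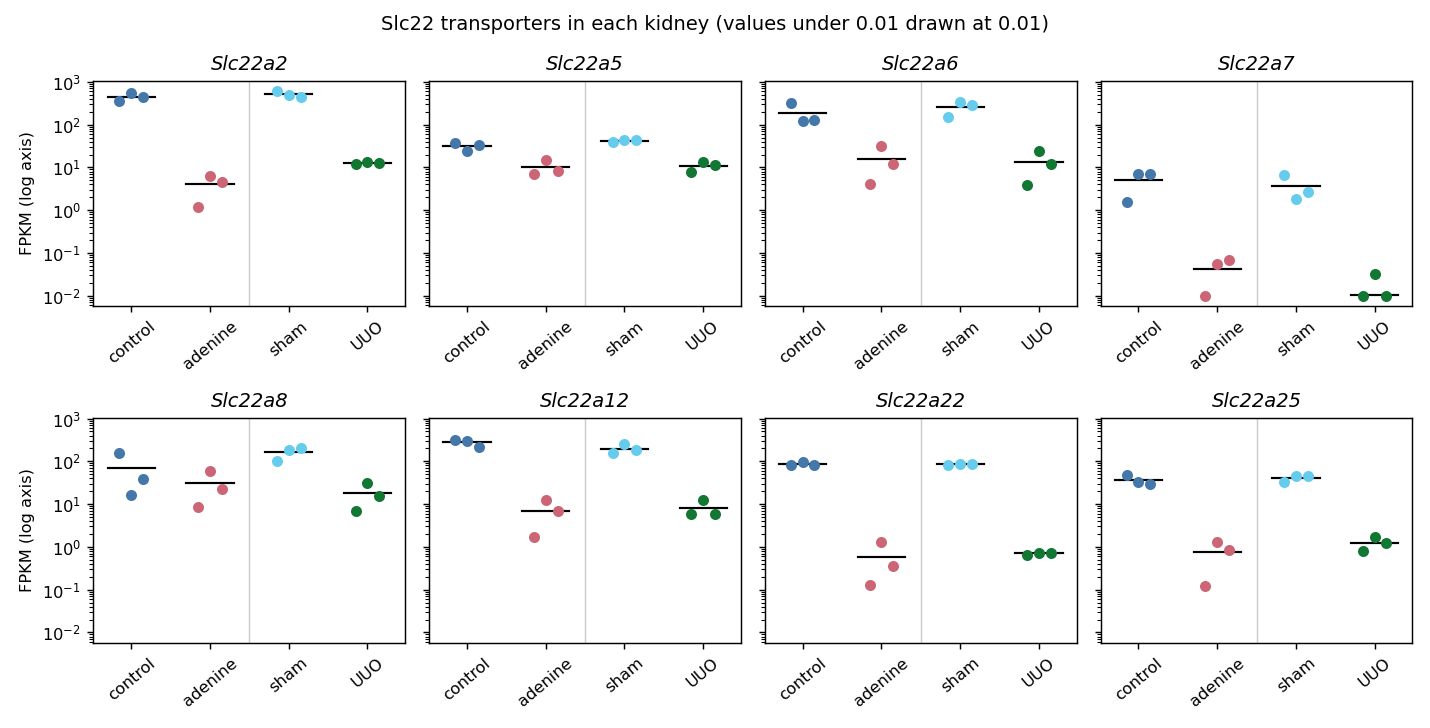
FPKM of the 8 members in every kidney, 1 panel per gene on a log axis; points are rats, black bars are group means, and a grey line separates the separately made tables. In 7 panels the adenine points lie below the control points, while for Slc22a8 they overlap; in every panel the UUO points lie below the sham points.

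Kidneys within a reference group were not alike, and this touches several members. Control rat 2 stood apart by low values of podocyte and some distal and proximal transcripts, for example Slc12a3, the sodium chloride carrier of the distal convoluted tubule, at 197, 12.9 and 164 FPKM in control rats 1 to 3, and Slc5a2, a glucose carrier of the early proximal tubule, at 13.7, 0.232 and 2.47. Not all distal genes were low in this rat, and Slc12a1, a carrier of the thick ascending limb, measured 135, 229 and 159.7 FPKM in control rats 1 to 3. The same rat had the highest control value of Slc7a13, an amino acid carrier of the late proximal tubule, well over that of control rat 1. Control rat 3 and sham rat 1 stood apart in clock genes, a list made after values were seen. Arntl, a core clock activator, measured 1.2, 1.65 and 11.4 FPKM in controls and 17, 1.24 and 1.85 in sham rats, against 4.67 to 5.80 in adenine and 4.53 to 5.51 in UUO kidneys. Their part in the results was not tested beyond leaving out each rat in turn, after which the number of members that fell was 7 with adenine and 8 with UUO each time. Kidney markers were present in all 12 samples, among them Lrp2 of the proximal tubule, Umod of the thick ascending limb and Podxl of podocytes.

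**Figure D2:**
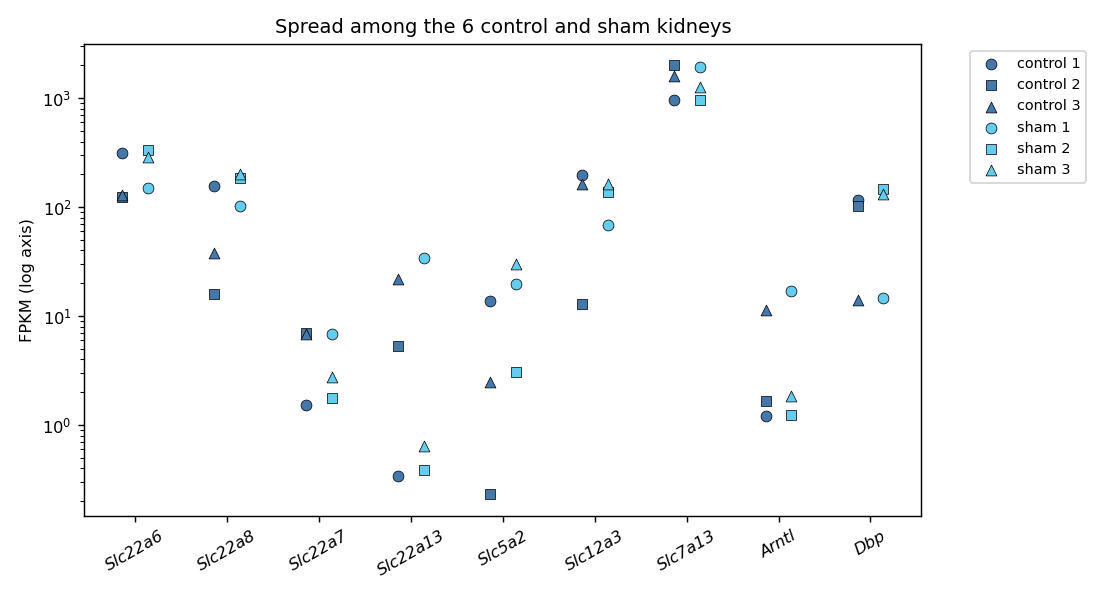
FPKM (log axis) of 4 Slc22 genes and 5 other genes in the 3 control and 3 sham kidneys, with 1 symbol per rat. Control rat 2 is lowest of the 6 in Slc22a8, Slc5a2 and Slc12a3 and highest in Slc7a13, and control rat 3 and sham rat 1 are highest in Arntl and lowest in Dbp.

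Among the cation and carnitine carriers, Slc22a2 was the member with the highest mean in both reference groups. Slc22a2 was present at 352, 543 and 436 FPKM in the control kidneys and at 1.18, 6.38 and 4.46 in the adenine kidneys. The groups were far apart, and the adenine mean was 0.903% of the control mean (log2 fold change -7.02, SE 0.57, limma adjusted p = 0.000132). In sham kidneys Slc22a2 measured 603, 492 and 439 FPKM, and in UUO kidneys 11.7, 13.5 and 12.4. The 3 UUO kidneys lay close together, at 2.45% of the sham mean (-5.33, SE 0.13, limma adjusted p = 4.71e-06).

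Slc22a5, the carnitine carrier, was the member that fell least among those that fell. It measured 36.9, 24.4 and 32.7 FPKM in control and 7.16, 15.3 and 8.45 in adenine kidneys. No values overlapped, and 32.8% of the control mean was left (-1.65, SE 0.30, limma adjusted p = 0.00343). In sham kidneys it stood at 39.0, 44.7 and 43.0 FPKM and in UUO kidneys at 7.95, 13.0 and 11.5. The UUO mean was 25.7% of sham (-1.98, SE 0.19, limma adjusted p = 0.000133), just short of the DEG limit of 2, which it passed under median-of-ratios scaling at -2.58.

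Of the organic anion transporters, Slc22a6 (OAT1) fell in both models. Its FPKM was 315, 124 and 130 in control kidneys and 4.16, 31.3 and 11.9 in adenine kidneys. The highest adenine value was below the lowest control value, and the mean was 8.33% of control (-3.88, SE 0.73, limma adjusted p = 0.00395). With UUO the values were 3.86, 23.8 and 12.2, against 150, 337 and 287 in sham kidneys. There was again no overlap (5.14% of sham, -4.54, SE 0.65, limma adjusted p = 0.000823).

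Slc22a8 (OAT3) differed most among control kidneys, at 156, 16.1 and 38.2 FPKM, a 9.71-fold range. The adenine kidneys gave 8.41, 60.9 and 22.5 FPKM, which overlapped the control values. The log2 fold change was -1.02 (SE 0.98, limma adjusted p = 0.398), and it ran from -1.77 to -0.13 when each rat was left out in turn. In UUO kidneys Slc22a8 did fall, from 103, 184 and 200 FPKM in sham to 6.86, 31.4 and 15.6. The sham and UUO values were separate (11.1% of sham, -3.37, SE 0.54, limma adjusted p = 0.00141).

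Slc22a7 encodes OAT2, another organic anion transporter, and was the member with the lowest mean in all 4 groups. Control kidneys had 1.53, 6.92 and 6.92 FPKM. It was listed at 0 in adenine rat 1 and at 0.0538 and 0.0702 in adenine rats 2 and 3 (-4.97, SE 0.61, limma adjusted p = 0.000649). In sham kidneys it measured 6.80, 1.78 and 2.73 FPKM, and in UUO kidneys it was at the lowest value of the table, 0.0001, in rats 1 and 3, and at 0.0316 in rat 2 (-4.92, SE 0.51, limma adjusted p = 0.000194). Values this low make the size of the fold depend on the number added before the log, and it ranged from -2.38 to -6.82 with adenine and from -2.10 to -7.64 with UUO when 1 or 0.01 was added.

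Slc22a12 (URAT1), the urate carrier of the brush border, stood at 315, 302 and 217 FPKM in control and at 1.66, 12.6 and 6.76 in adenine kidneys. This left 2.52% of the control mean with no overlap (-5.68, SE 0.67, limma adjusted p = 0.000536). Sham kidneys had 154, 258 and 181 FPKM and UUO kidneys 5.73, 12.7 and 5.76. Here 4.09% of the sham mean was left (-4.67, SE 0.34, limma adjusted p = 5.61e-05).

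Slc22a22, a prostaglandin-specific organic anion transporter, fell in both models and was the most even member in the reference groups. Control kidneys gave 82.7, 96.2 and 82.5 FPKM and sham kidneys 81.8, 87.0 and 85. Adenine kidneys gave 0.131, 1.28 and 0.349 FPKM, or 0.672% of control (-7.38, SE 0.59, limma adjusted p = 0.000126). In UUO kidneys it was 0.655, 0.731 and 0.716 FPKM, or 0.828% of sham (-6.73, SE 0.10, limma adjusted p = 7.64e-07).

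Slc22a25 measured 47.3, 32.1 and 29.8 FPKM in control and 0.123, 1.29 and 0.833 in adenine kidneys (-5.76, SE 0.65, limma adjusted p = 0.000461). In sham kidneys it was at 32.5, 44.6 and 46.5 FPKM and in UUO kidneys at 0.818, 1.66 and 1.24 (-4.98, SE 0.27, limma adjusted p = 2.01e-05). No disease value reached a reference value. In the RefSeq annotation (GRCr8) its span overlaps those of Slc22a8 and Slc22a6, and strand use in the counting is not given in the sources used here, so its level may be mixed with theirs.

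**Figure D3:**
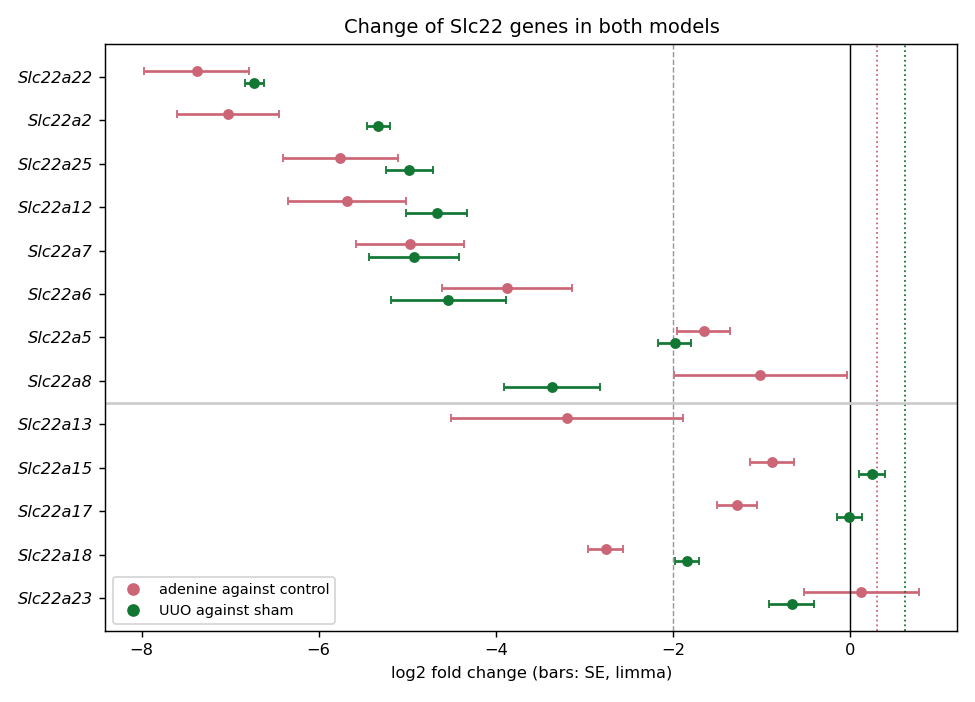
Log2 fold change of each tested Slc22 gene with its limma standard error, for adenine against control and UUO against sham; the dashed line marks the DEG limit of -2 and the dotted lines the medians of all tested genes, 0.30 and 0.62. The members above the grey line run from -7.38 (Slc22a22) to -1.02 (Slc22a8) with adenine and from -6.73 (Slc22a22) to -1.98 (Slc22a5) with UUO.

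The fold changes of the members were then set against each other between the models. A t test took each difference over the combined limma standard error. At both thresholds (adjusted p and a difference of 2) 0 of 8 members differed, beside 2.88% of 13486 genes tested in both tables. By adjusted p alone 1 member differed, beside 27% of all, and 1 had an unadjusted p under 0.05. That member was Slc22a2, with a lower log2 fold change in the adenine than in the UUO model. Its difference was -1.70 (SE 0.59, 95% interval -2.96 to -0.43, t-test adjusted p = 0.0472). Under median-of-ratios scaling it was -1.38 and no longer passed (t-test adjusted p = 0.113). Slc22a8 gave a difference of 2.35 in the other direction (SE 1.12, 95% interval -0.052 to 4.76, t-test adjusted p = 0.132). Without control rat 1 that difference was 3.23 (t-test adjusted p = 0.0330). The intervals for the other 6 members all held 0, and the widest, that of Slc22a6, ran from -1.44 to 2.77.

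The order of the members differed between reference and diseased kidneys. In control kidneys the means ran Slc22a2, Slc22a12, Slc22a6, Slc22a22, Slc22a8, Slc22a25, Slc22a5 and Slc22a7. Neighbours in that order overlapped in their ranges except Slc22a2 with Slc22a12, Slc22a6 with Slc22a22, and Slc22a5 with Slc22a7. In sham kidneys the order was Slc22a2, Slc22a6, Slc22a12, Slc22a8, Slc22a22, Slc22a5, Slc22a25 and Slc22a7. In adenine kidneys it was Slc22a8, Slc22a6, Slc22a5, Slc22a12, Slc22a2, Slc22a25, Slc22a22 and Slc22a7, and only the last neighbours were separate. In UUO kidneys the first was again Slc22a8, ahead of Slc22a6 and Slc22a2, which were followed by Slc22a5, Slc22a12, Slc22a25, Slc22a22 and Slc22a7, and the last 4 of these were separate from each other.

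The summed FPKM of the 8 members was 974 to 1306 in control kidneys, 22.8 to 129 in adenine kidneys, 1169.7 to 1450.0 in sham kidneys and 37.6 to 97.0 in UUO kidneys. On average Slc22a2 made up 39.7% of this sum in control and 6.06% in adenine kidneys, and 39.9% in sham and 22.0% in UUO kidneys. Slc22a8 made up 5.76% and 41.6% in control and adenine kidneys, and 12.3% and 25.6% in sham and UUO kidneys. For Slc22a5 the shares were 2.77% and 19.5%, and 3.26% and 18%. These shares are a description without a test.

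**Figure D4:**
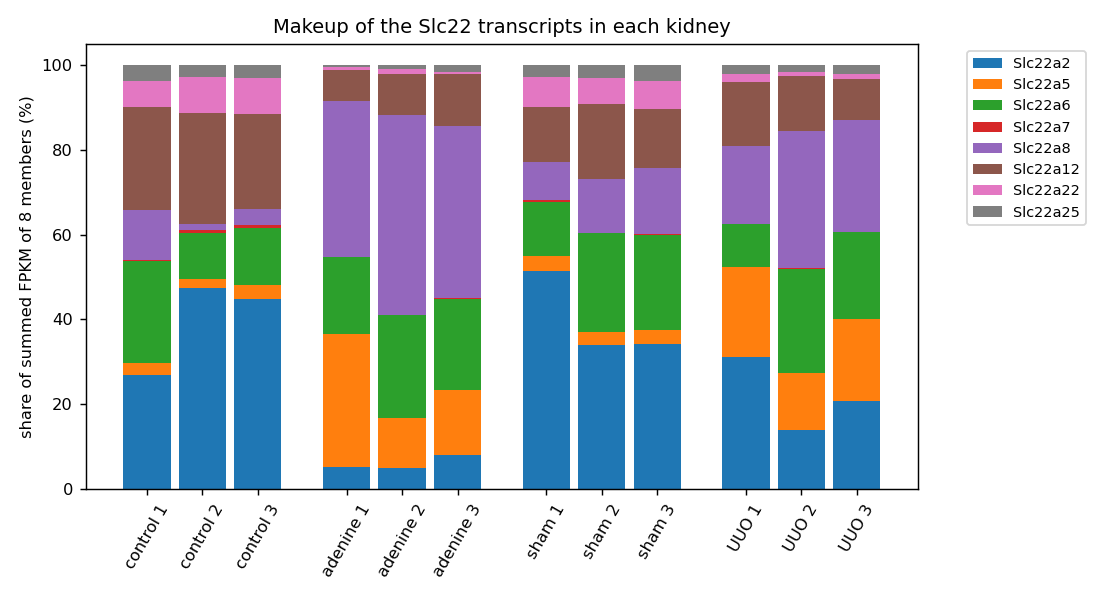
Share of each member, in percent, in the summed FPKM of the 8 members, 1 stacked bar per kidney. Slc22a2 is the largest share in the sham kidneys and Slc22a8 in the adenine kidneys.

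Among diseased kidneys the same rats were high or low for most members. Adenine rat 1 had the lowest adenine value of 8 of 8 members, and rat 2 the highest of 7. UUO rat 2 was highest for 8 of 8 and UUO rat 1 lowest for 8, in Slc22a7 tied with rat 3 at the floor of the table. Of the 10 proximal tubule markers, adenine rat 1 was lowest in 10 and rat 2 highest in 9, while UUO rat 2 was highest in 9 and UUO rat 1 lowest in 7. Among the 7 other Slc22 genes reported, adenine rat 1 was highest in 3 and lowest in 3, and adenine rat 2 was highest in 3. Those highest in rat 1 were Slc22a17 and, with too few kidneys at 0.5 FPKM to be tested, Slc22a3 and Slc22a20. Those lowest in rat 1 were Slc22a13, Slc22a15 and Slc22a18, all of them tested. Among these 7, UUO rat 2 was highest in 4 and UUO rat 1 lowest in 4. Such counts were not made over all genes. The summed FPKM of the proximal tubule markers was 4780.4 to 5447 in control, 213 to 650.2 in adenine, 5115 to 5955 in sham and 391 to 720.0 in UUO kidneys. Of the 10 markers 7 fell with adenine (median log2 fold change -2.99) and 8 with UUO (median -2.68). Across all tested genes 19.9% and 14.4% fell. The 3 that passed no test with adenine were Cubn (-0.34), Slc34a3 (-0.46) and Slc5a2 (2.78). The 2 that passed no test with UUO were Cubn (-0.48) and Slc5a2 (0.05). None of the 10 markers was at 0. Their part in the fall of the members was not tested.

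Apical exit pumps and exchangers, which act with the carriers, moved less uniformly. Slc47a1 (MATE1), which passes cations on to the urine, fell with adenine (-0.99, SE 0.19) and with UUO (-2.09, SE 0.22). Abcg2, a urate and drug pump, fell too (-2.54 and -1.72), and Abcc4, an organic anion pump, rose (1.78 and 1.07). Of the 4 tested apical exit genes 2 fell and 1 rose in each model, and Abcc2 passed no test. Their medians were -0.42 with adenine and -0.94 with UUO. Across all genes 39.6% rose with adenine and 56.1% with UUO.

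The genes that keep the gradients on which OAT1 and OAT3 depend also fell in part. Slc13a3 (NaDC3), which brings dicarboxylates into the cell, fell (-1.99 with adenine and -3.40 with UUO). Slc13a2, its luminal relative, fell (-2.98 and -3.87), as did Fxyd2, a regulator of the sodium pump (-1.89 and -2.73). Of 4 such genes reported 3 fell with adenine and 4 with UUO, with medians of -1.94 and -3.06. The shares of all tested genes that fell were 19.9% and 14.4%.

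Among 6 tested urate genes 3 fell in each model, and 2 rose with adenine but 1 with UUO. Of all tested genes 19.9% fell and 39.6% rose with adenine, and 14.4% fell and 56.1% rose with UUO. Slc17a3, a luminal urate exit carrier, fell (-3.34 and -3.45). Xdh, the enzyme that makes urate, rose (2.62 with adenine and 1.77 with UUO). Slc5a12, a lactate carrier, rose with adenine (4.0, SE 1.01), with control values of 1.81, 0.0254 and 0.362 FPKM that spread widely, and passed no test with UUO (-0.04). Of 6 tested carnitine genes 3 fell with adenine and 6 with UUO. Tmlhe, the first enzyme of carnitine synthesis, fell as well (-4.27 and -3.75).

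Regulators and scaffolds known to act on these transporters fell in 3 of 3 reported cases in each model. Of all tested genes 19.9% fell with adenine and 14.4% with UUO. Hnf4a, a nuclear receptor of the proximal tubule, stood at 143, 116 and 110 FPKM in control and 9.93, 40.5 and 28.8 in adenine kidneys (-2.42, SE 0.48), and at 156, 183 and 157 in sham and 31.6, 59.5 and 43.4 in UUO kidneys (-1.93, SE 0.22). Pdzk1, a scaffold that holds URAT1 at the brush border, fell (-2.60 and -2.47). Slc9a3r1, another scaffold of the brush border, fell as well (-1.77 and -1.57).

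**Figure D5:**
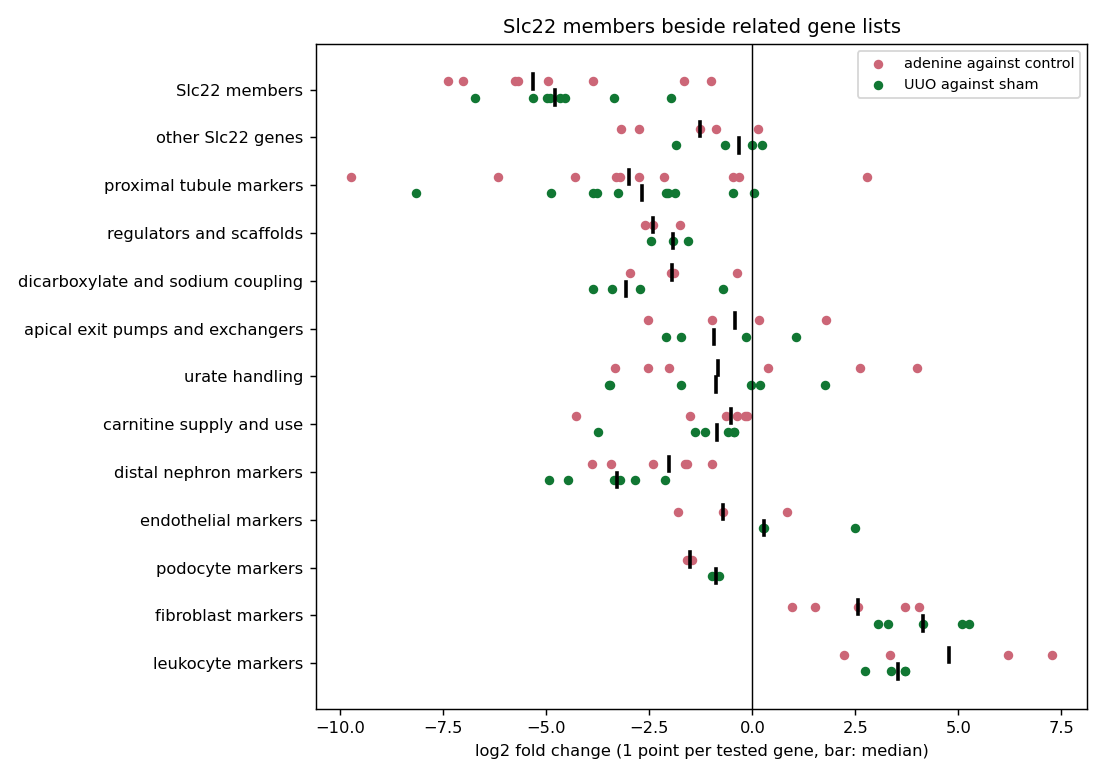
Log2 fold change of every tested gene of each list, 1 point per gene and a bar at the median, for adenine against control and UUO against sham. The 8 members have medians of -5.33 and -4.79, lower than those of every other list drawn. Members and lists were chosen with earlier results of these data known, so this order is a description.

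Markers of other cell types were looked at in the same kidneys. Of the 4 tested leukocyte markers 4 rose in each model, and their sum went from 8.00 to 10.6 FPKM in control to 314 to 584 in adenine, and from 8.33 to 10.8 in sham to 104 to 119 in UUO kidneys. The 5 fibroblast markers rose in both models, with sums of 541 to 733 in adenine and 1028 to 2244 in UUO kidneys. Distal nephron markers fell in 4 of 6 cases with adenine and 6 of 6 with UUO. Endothelial markers were mixed, and of 3 tested 1 fell (Emcn, -1.79) and 1 rose (Cdh5, 0.84) with adenine. With UUO 1 of these rose (Cdh5, 2.48) and 2 passed no test. Of 2 tested podocyte markers 1 fell with adenine (Podxl, -1.46) and 0 with UUO. Beside these counts, 39.6% of all tested genes rose and 19.9% fell with adenine, and 56.1% rose and 14.4% fell with UUO. The part of these cell types in the fall of the members was not tested.

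The other Slc22 genes reported had medians of -1.28 with adenine and -0.33 with UUO. With adenine 3 of 5 tested fell, against 19.9% of all, and with UUO 1 of 4, against 14.4% of all. The UUO count rested on the scaling, and was 3 with median-of-ratios and with quantile scaling. It was 2 with a minimum FPKM of 1, with the replicate block and without sham rat 1, the added gene being Slc22a23. Slc22a18, an organic cation transporter-like gene, fell in both models (-2.76, SE 0.20 and -1.84, SE 0.13), and its values were 70.9, 68.4 and 59.8 FPKM in control and 7.85, 13.1 and 8.90 in adenine kidneys. Slc22a17 fell with adenine by 1.28, and with UUO its log2 fold change was -0.01 (limma adjusted p = 0.961), but it passed as lower with median-of-ratios (-0.60, adjusted p = 0.0109) and quantile scaling (-0.69, adjusted p = 0.00714). Slc22a15 fell with adenine (-0.88, limma adjusted p = 0.0197), a call lost with same-sum scaling (0.0728 as adjusted p) and without control rat 2 (0.0605), control rat 3 (0.0653) or adenine rat 1 (0.0543). With UUO its log2 fold change was 0.24 (limma adjusted p = 0.178), and 0.46 with same-sum scaling, where it passed (adjusted p = 0.0258).

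Slc22a13, an organic anion carrier related to URAT1, spread widely among reference rats. It measured 0.338, 5.28 and 21.9 FPKM in control and 0.225, 0.505 and 0.241 in adenine kidneys (-3.20, SE 1.31, limma adjusted p = 0.0729). The call rested on single rats, with -4.74 without control rat 1 (limma adjusted p = 0.00245) and -1.92 without control rat 3, and with quantile scaling it passed as well (-3.86, limma adjusted p = 0.0370). In sham kidneys it was 34.0, 0.385 and 0.645 FPKM and in UUO kidneys 0.266, 0.425 and 0.423. Fewer than 3 of these kidneys reached 0.5 FPKM, so it was not tested there. The highest control rat and the highest sham rat were those that stood apart in clock genes, and control rat 2 was also above all adenine kidneys. Slc22a3 and Slc22a20 also had fewer than 3 kidneys at 0.5 FPKM in each model and were not tested.

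The profiles most like those of 3 members were found by distance over 12 kidneys, each gene centred within its table, among 13486 genes. For Slc22a2 the nearest were Prlr (1.76), Aadat (1.78) and LOC103690120 (1.78), in log2 units, and Slc22a22, Slc22a25 and Slc22a12 ranked 6, 8 and 10. For Slc22a6 they were Slc34a1 (1.23), Pzp (1.36) and Ugt2b35 (1.59). For Slc22a8 they were Dgkg (1.37), Ddc (1.51) and Spink1l (1.64), and Slc22a2 ranked 11802. Profiles were not scaled, so this distance grows with a gap in fold change and does not measure shape alone. The log2 fold changes were -1.02 and -3.37 for Slc22a8 and -7.02 and -5.33 for Slc22a2, with adenine and UUO.

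The promoters of the members were searched for a short site of Hnf4a, which fell with them. RefSeq (GRCr8) gave the 250 bases before the start of 8 of the 9 named genes, Slc22a4 included and Slc22a6 not. CAAAGTCCA, a site of HNF4 factors, was found on either strand in 0 of these 8, against 0.338% of 33469 promoters. The promoters of Slc22a2 and Slc22a22 are shown as members with large falls in both models, beside that of Slc22a8, which had the smallest adenine change.
Slc22a2, chr1:50711020-50711269, minus strand: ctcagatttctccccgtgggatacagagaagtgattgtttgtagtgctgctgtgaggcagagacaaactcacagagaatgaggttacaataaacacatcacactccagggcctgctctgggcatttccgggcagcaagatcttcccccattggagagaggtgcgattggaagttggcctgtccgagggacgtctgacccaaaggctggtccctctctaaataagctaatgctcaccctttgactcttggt
Slc22a22, chr7:90639696-90639945, minus strand: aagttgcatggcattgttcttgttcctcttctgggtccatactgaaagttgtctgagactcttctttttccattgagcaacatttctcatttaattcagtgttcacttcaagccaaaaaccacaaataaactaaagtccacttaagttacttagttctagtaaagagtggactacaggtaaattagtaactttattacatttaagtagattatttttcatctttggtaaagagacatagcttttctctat
Slc22a8, chr1:214927034-214927283, plus strand: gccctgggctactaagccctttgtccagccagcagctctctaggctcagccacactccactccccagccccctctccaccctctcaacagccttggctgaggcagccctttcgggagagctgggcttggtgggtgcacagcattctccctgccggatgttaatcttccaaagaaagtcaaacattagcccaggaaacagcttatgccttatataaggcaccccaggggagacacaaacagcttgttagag
The missing match says only that these letters are not in the window, and binding was not measured.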

How the data were processed

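RNA was sequenced from kidneys of 12 male SD rats, 3 in each of 4 groups, and groups were taken from the labels. The authors deposited FPKM values per gene in 2 tables, made separately for control and adenine and for sham and UUO. Per the labels and the submitters' processing notes, poly(A) libraries were processed with tools that include cutadapt 1.9, HISAT2 2.0.4 and StringTie 1.3.4d. The authors named DESeq2 and edgeR there too, and the authors tested counts with DESeq2. The genome build is not given in the sources used here. Counts were not used here, so the FPKM values were tested on the log scale. Read depth is unknown, and the spread between 3 rats is the only measure of precision. FPKM summed to 564972 to 582725 per control, 468389 to 487770 per adenine, 619664 to 630244 per sham and 528811 to 539011 per UUO kidney. The lowest value is 0 in the first table and 0.0001 in the second. Replicates shared at most 1 identical value above the floor, in a pair with 18764 compared.

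Genes that reached an FPKM of 0.5 in 3 or more of the 6 samples of a table were tested on log2(FPKM + 0.1) with limma 3.58.1 (lmFit, eBayes with trend) in R 4.3.3, separately per table, two-sided, with Benjamini-Hochberg adjustment over all tested entries. A fold change on this scale understates that of low genes. DEGs passed an adjusted p of 0.05 and an absolute log2 fold change of 2, as in the study. The difference between models was tested by a t test of the difference of fold changes over the combined limma standard error. Its p was adjusted by Benjamini-Hochberg over all symbols tested once in both tables. Python 3.11.15 (numpy 2.4.6, pandas 2.3.3, scipy 1.17.1, matplotlib 3.10.9) served for the rest. The scripts were tested on simulated data.

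Named were the members, other Slc22a genes, lists of related genes and markers, and for Slc22a2, Slc22a6 and Slc22a8 the 3 nearest profiles by Euclidean distance. Some genes of these lists are not reported here and were left out of the list counts. The members and lists were chosen with earlier results of these data known. Genes named for a reference rat that stood apart, clock genes included, were chosen after their values were seen. The settings varied were the scaling (median-of-ratios, quantile, same-sum), the pseudocount (1 and 0.01), the filter (none, or 1 FPKM), the trend (left out), a replicate block, and leaving out each rat. Replicate numbers belong to different rats, so by the labels the numbers do not pair the samples. Deviations of same-numbered rats from their group means correlated at -0.12 to -0.049 for control with adenine. For sham with UUO they correlated at 0.050 to 0.11.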

Additional observations from a re-analysis of the deposited data

Results flagged for a closer look

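By t-test adjusted p under 0.05, 1 of 8 members and 3 of 4 other Slc22 genes tested differed between the adenine and UUO models. This flagged them here. Slc22a2 gave a difference of -1.70 log2 units (adjusted p = 0.0472). Slc22a17, a receptor-like member of the family, gave -1.27 (adjusted p = 0.00464), with all 3 adenine kidneys at 3.81 to 6.47 FPKM against 11.7 to 15.2 in control, and UUO kidneys at 6.21 to 8.46 against 7.00 to 7.26 in sham. Slc22a15 gave -1.12 (adjusted p = 0.0126) and Slc22a18 -0.91 (adjusted p = 0.0134). By this test 27% of all genes differed. The medians of all tested genes were 0.30 with adenine and 0.62 with UUO, and with median-of-ratios scaling, which brings both to 0.0057 and 0.020, Slc22a2, Slc22a15 and Slc22a18 no longer passed.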

How the results depend on the processing

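The number of members that fell was 7 with adenine and 8 with UUO in every alternative, and of DEGs 6 with adenine, and 7 or 8 with UUO, where Slc22a5 lies at the limit. With the replicate block the counts were 6 and 7 DEGs and 7 and 8 genes that fell. Same-numbered rats are different animals. The number of members differing between models by adjusted p was 1, and 0 with a pseudocount of 0.01, no filter, median-of-ratios, quantile or same-sum scaling, or no trend, so the call of Slc22a2 rests on the settings. Leaving out each rat gave 0 to 2 such members, and 0 to 1 that also differed by 2. That was Slc22a8 without control rat 1 (3.23) and Slc22a2 without adenine rat 2 (-2.17), when Slc22a22 passed by adjusted p as well (-1.35). Signs turned for the following. Slc22a23 with adenine became -0.16 with median-of-ratios and -0.38 with quantile scaling, and ran from -0.50 to 0.85 with a rat left out. Slc22a15 with UUO became -0.35 and -0.39 with the same scalings. Slc22a17 with UUO became 0.21 with same-sum scaling and ran from -0.13 to 0.088 with a rat left out. The difference of Slc22a7 became 0.81 with a pseudocount of 0.01, 0.080 with median-of-ratios and 0.0057 with same-sum scaling. With a rat left out, differences ran from -0.050 to 1.39 for Slc22a6, -0.75 to 0.36 for Slc22a7 and -1.32 to 0.0063 for Slc22a25. Read depth is unknown, so no detection limit can be given for values near 0, which bears on Slc22a7.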
